A study of Danio rerio with 4 samples.

Results

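DnaJ proteins, also called HSP40 proteins or J-domain proteins, are the cochaperones of HSP70. Their J domain makes HSP70 hydrolyse ATP and close on a client protein, and their other parts choose the client or place HSP70 at a site in the cell. Class A proteins carry a J domain, a glycine- and phenylalanine-rich stretch and a zinc-finger-like region, class B proteins lack the zinc-finger-like region, and class C proteins share the J domain alone and are otherwise unlike. A few DnaJ genes, mammalian DNAJB1 above all, are themselves heat inducible, whereas most are housekeeping genes of the cytosol, endoplasmic reticulum, mitochondria, endosomes or synaptic vesicles. Array features were taken as DnaJ features when their zebrafish symbol began with dnaj in either letter case or, where that symbol was empty, when their human ortholog name began with DNAJ. This gave 32 of 37176 features, 15 named by a zebrafish symbol and 17 by a human ortholog, which carried 25 distinct names. By the letter in the name 7 were class A, 12 class B and 13 class C.

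The 4 one-colour arrays, hybridised with Cy3-labelled RNA of whole embryos, comprised 2 of Tg(hsp70-hRASG12V) embryos, called transgenic here, and 2 of wild-type fish. The titles also carry the tags ras for the former and ab for the latter, which the labels do not explain. The transgene is a human RAS gene with the G12V mutation under the heat-inducible hsp70 promoter, and the design text calls its carriers heterogeneous. A heat shock of 1 h at 37 °C was given to both genotypes 24 hours after fertilisation, followed by a return to 28.5 °C. RNA was taken 30 hours after fertilisation. Every group had thus been heat shocked, and no unshocked group was analysed here. According to the design text 50 embryos were pooled for each array and replicates numbered 3, of which 2 arrays per genotype were given. Transgene and line, clutch or handling cannot be told apart, since each genotype is a set of pools of its own.

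The values are log2 expression levels as deposited. Array medians lay between 9.5 and 9.62. Across all features the transgenic arrays had a Pearson correlation of 0.996 with each other and the wild-type arrays one of 0.988. The median SD between the arrays of a genotype was 0.1 for transgenic and 0.171 for wild-type embryos. Markers of 7 embryonic tissues were looked up as a check of the whole-embryo label, each by its brightest feature, and of the 28 measured, 27 lay above the 25th percentile of all values on at least 1 array, the exception being the lens gene cryba1a. A feature passed when its adjusted p in limma was under 0.05. Of the 28, 3 passed upward, beside 10.3% of all features, and 1 downward, beside 7.28%. Upward were syt1a of the neuron list, cdh1 of the epidermis list and csf1ra of the macrophage and neutrophil list. Downward was foxe3 of the lens list. These single markers do not stand for their lists. The other epidermis markers (krt4 -0.16, krt5 -0.36, cyt1 -0.11, tp63 -0.26) and mpeg1.1 (-0.50) and coro1a (-0.05) lay below 0. Also opposite to the called marker of their list were snap25a (-0.13) and lim2.1 (0.32), while stmn2b (0.05), cryaa (-0.49) and cryba1a (-0.56) lay on its side. Counting all features of a marker whose brightest one did not pass, 3 of 4 for cryba1a, 1 of 3 for krt5 and 1 of 4 for cyt1 passed. The part of these markers in the DnaJ results was not tested. In whole embryos, fewer cells of a type and less RNA per cell cannot be told apart. Because 2 pools per genotype were compared, the p-values rest on the spread between these pools and on the spread that limma borrows from all features.

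The comparison asked how DnaJ transcripts of heat-shocked transgenic embryos differed from those of heat-shocked wild-type embryos. A pair of DNAJB1 features, for the ortholog of the heat-inducible human cochaperone, were 2.89- and 2.91-fold lower in the transgenic embryos, and a feature each for DNAJA3 and DNAJC4 was lower as well. A feature for DNAJC13 was 3.98-fold higher and dnajb12b was 1.86-fold higher. The remaining members, which include those of class C listed as endoplasmic reticulum (dnajc3a, DNAJC10 and DNAJC16) and the synaptic dnajc5aa, did not pass. Among them were further features for DNAJB1, DNAJA3 and DNAJC13. Outside the rule, other endoplasmic reticulum features of class C did pass, with dnajc3b lower and dnajc22 higher. With only the brightest feature per gene, 1 of 25 rose and 2 fell. In all, 6 of 32 DnaJ features (18.8%) had an adjusted p under 0.05 (limma, adjusted by Benjamini-Hochberg over all features), beside 17.6% of all features, so the share was near the background. Of the 6, 2 were higher, beside 10.3% of all features, and 4 were lower, beside 7.28% of all features. When either transgenic array was left out, 0 DnaJ features and 0 of all features passed in limma. At an unadjusted p under 0.05 there were then 6 DnaJ features and 7482 of all features without transgenic replicate 1, and 5 and 7548 without transgenic replicate 2. Leaving out either wild-type array likewise leaves 1 array in a genotype. Counts of passing features from those fits are given only within the ranges for leaving out 1 array, in the section on processing. The upper ends of those ranges come from the fits without a wild-type array, so the loss of all calls was seen only without a transgenic array. In each of these fits the genotype with 1 array has no spread of its own, so the pair of the other genotype stands in for it.

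**Figure D1:**
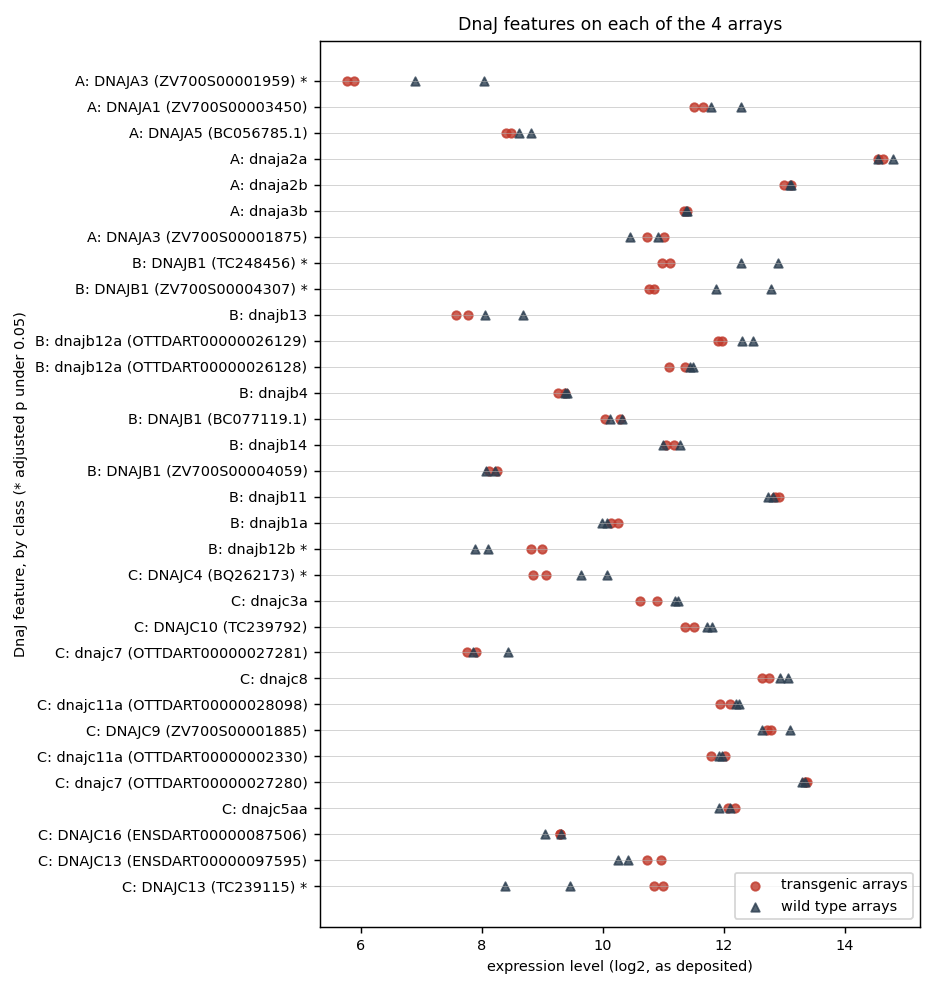
Log2 expression level (horizontal axis) of each of the 32 DnaJ features (vertical axis, grouped by class A, B and C), with 1 point per array, circles for the 2 transgenic and triangles for the 2 wild-type arrays. An asterisk marks the 6 features past an adjusted p of 0.05, in which the circles lie close together and the triangles often lie apart, as in DNAJC13 (TC239115) at 8.39 and 9.46.

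Class A holds the general cochaperones of the cytosol and the mitochondrial matrix. Of its 7 features, 0 rose, 1 fell and 6 did not pass, beside 10.3% of all features called higher and 7.28% called lower. The median log2 difference (transgenic minus wild type) was -0.09, beside 0.01 over all features. The feature that fell was 1 of 2 unnamed features with the ortholog DNAJA3, a cochaperone of mitochondrial HSP70. On it (ZV700S00001959) the transgenic arrays read 5.89 and 5.78 and the wild-type arrays 8.03 and 6.90. The groups did not overlap, but both transgenic values and that of wild-type replicate 2 lay below the 25th percentile of their arrays (7.05 to 7.17 over the 4 arrays). Only wild-type replicate 1 lay above it. An unknown share of such a signal is background. The difference was -1.63 ± 0.39 (log2 ± SE, n = 2 arrays per genotype, adjusted p = 0.049 in limma). It no longer passed with a robust variance prior (adjusted p = 0.053) or on the log2(value + 50) scale (-1.10, adjusted p = 0.072). Both filters on level removed it before testing. Over all refits its adjusted p lay between 0.0057 and 0.19.

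The other DNAJA3 features did not pass. The second unnamed DNAJA3 feature (ZV700S00001875) read 10.74 and 11.01 in the transgenic and 10.46 and 10.92 in the wild-type arrays, and its groups overlapped (0.19 ± 0.22, adjusted p = 0.57). The feature of dnaja3b, a zebrafish paralog of the same ortholog, read 11.34 and 11.39 against 11.39 and 11.37 (-0.02 ± 0.14, adjusted p = 0.94). Its 95% interval ran from -0.37 to 0.33. The files do not say which DNAJA3 paralog the unnamed features measure.

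The cytosolic members of class A did not pass. The paralogs dnaja2a and dnaja2b, which encode general HSP70 cochaperones, differed by -0.09 ± 0.16 and -0.05 ± 0.14, with 95% intervals of -0.50 to 0.33 and -0.41 to 0.32. The feature with the ortholog DNAJA1, a cochaperone of cytosolic HSP70, read 11.51 and 11.66 in the transgenic and 11.79 and 12.29 in the wild-type arrays. Its groups did not overlap, and its difference of -0.45 ± 0.21 did not pass (adjusted p = 0.19). It was -0.70 without wild-type replicate 1 and -0.21 without wild-type replicate 2. DNAJA5 is an older name of DNAJC21, a ribosome maturation factor, since the table gives DNAJA5 as the ortholog of a symbol that RefSeq lists under dnajc21. Its feature differed by -0.26 ± 0.15 (adjusted p = 0.27). With it moved to class C, the median of class A was -0.07 and that of class C -0.16.

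Class B holds the stress-inducible cochaperone DNAJB1 and its relatives, and several cochaperones of the endoplasmic reticulum. Of 12 features, 1 rose, 2 fell and 9 did not pass, beside 10.3% of all features called higher and 7.28% called lower. The median difference was -0.07. Both features that fell had the ortholog DNAJB1 and no zebrafish symbol. On the first (TC248456) the transgenic arrays read 10.98 and 11.11 and the wild-type arrays 12.28 and 12.89. On the second (ZV700S00004307) the transgenic arrays read 10.84 and 10.76 and the wild-type arrays 11.88 and 12.78. On both, the transgenic arrays lay close together, the wild-type arrays lay apart with replicate 2 the higher, and the genotypes did not overlap. The differences were -1.54 ± 0.24 (2.91-fold, adjusted p = 0.022) and -1.53 ± 0.32 (2.89-fold, adjusted p = 0.038). Without wild-type replicate 2 they were -1.24 and -1.08, and without wild-type replicate 1 they were -1.84 and -1.98.

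The other DNAJB1 features did not pass. The feature with the symbol dnajb1, which RefSeq lists under dnajb1a, read 10.26 and 10.13 in the transgenic and 9.98 and 10.06 in the wild-type arrays. Its transgenic values lay above its wild-type values, in the opposite direction from the features that fell, by 0.17 ± 0.14 (adjusted p = 0.42), with a 95% interval of -0.19 to 0.54. A further unnamed DNAJB1 feature (BC077119.1) overlapped between the genotypes (-0.06 ± 0.17, adjusted p = 0.83). A feature listed with the orthologs DNAJB1, DNAJB5 and DNAJB4 together overlapped too (0.04 ± 0.15, adjusted p = 0.88). RefSeq lists 2 DNAJB1 genes in zebrafish, dnajb1a and dnajb1b, and the sources used here do not assign the features that fell to either. The related cochaperone gene dnajb4 differed by -0.07 ± 0.14, with a 95% interval of -0.44 to 0.29.

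The feature that rose in class B was that of dnajb12b. Its mammalian ortholog is anchored in the membrane of the endoplasmic reticulum with the J domain facing the cytosol and takes part in the removal of misfolded membrane proteins. The transgenic arrays read 8.81 and 8.99 and the wild-type arrays 7.89 and 8.11. The groups did not overlap, and each pair of arrays lay close together. The difference was 0.90 ± 0.16 (1.86-fold, adjusted p = 0.029). The 2 features of its paralog dnajb12a lay on the other side of 0 without passing. The first (OTTDART00000026129) read 11.91 and 11.97 against 12.49 and 12.30 (-0.45 ± 0.15, adjusted p = 0.097 in limma). With all arrays it passed under the trend prior (adjusted p = 0.030) and with the filter at the median (adjusted p = 0.041). The second (OTTDART00000026128) differed by -0.24 ± 0.16 (adjusted p = 0.34). Whether the paralogs differ from each other was not tested.

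Of the rest of class B, dnajb11, a cochaperone of the endoplasmic reticulum HSP70 BiP, differed by 0.11 ± 0.14 (95% interval -0.25 to 0.47). The membrane cochaperone gene dnajb14 differed by -0.02 ± 0.17. The feature of dnajb13, which in mammals encodes a radial spoke protein of sperm flagella and motile cilia, read 7.77 and 7.58 in the transgenic and 8.69 and 8.05 in the wild-type arrays. These groups did not overlap, and the difference of -0.70 ± 0.25 did not pass (adjusted p = 0.12). It was -1.02 without wild-type replicate 2 and -0.37 without wild-type replicate 1. Of 4 motile cilia markers measured 0 passed, beside 17.6% of all features. Their mean levels were 8.87 to 10.60 on transgenic and 9.02 to 10.57 on wild-type arrays.

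**Figure D2:**
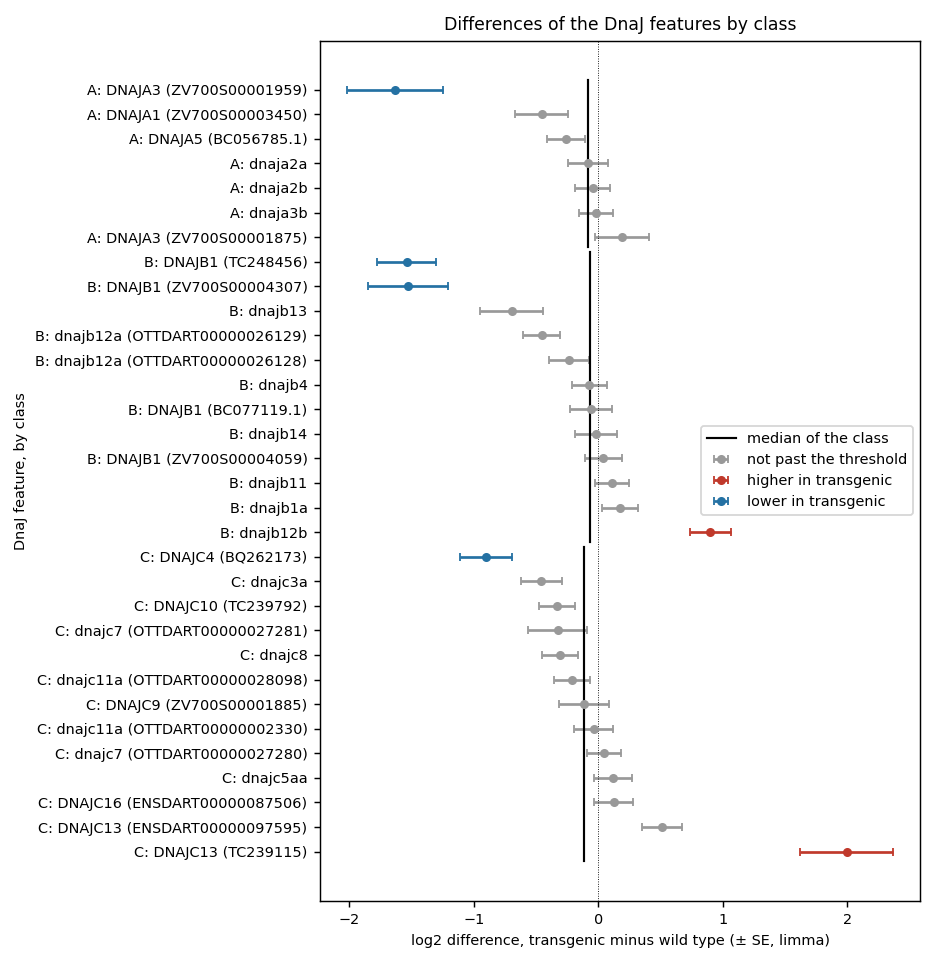
Log2 difference, transgenic minus wild type, with the limma SE as error bars (horizontal axis), for the 32 DnaJ features (vertical axis) by class, with a black line at each class median. The medians lie at -0.09, -0.07 and -0.12 for classes A, B and C, while the 6 coloured features past the threshold run from -1.63 to 1.99.

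Class C is the most varied, with members at endosomes, synaptic vesicles, mitochondria, ribosomes and spliceosomes. Of 13 features, 1 rose, 1 fell and 11 did not pass, beside 10.3% of all features called higher and 7.28% called lower. The median difference was -0.12. The feature that rose has the ortholog DNAJC13, known as RME-8, which works with HSP70 on endosomes. On it (TC239115) the transgenic arrays read 10.85 and 10.99 and the wild-type arrays 8.39 and 9.46. The groups did not overlap, and the wild-type arrays lay far apart (SD 0.763). The difference was 1.99 ± 0.37 (3.98-fold, adjusted p = 0.031). It was 2.53 without wild-type replicate 2 and 1.45 without wild-type replicate 1. The other DNAJC13 feature (ENSDART00000097595) read 10.96 and 10.74 against 10.26 and 10.41. It lay on the same side without overlap, at 0.51 ± 0.16, and did not pass (adjusted p = 0.088). It passed with the trend prior and with the filter at the median (adjusted p from 0.036 to 0.44 over the refits).

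The feature that fell in class C (BQ262173) is listed with DNAJC4 and 2 further human transcripts, so its gene is uncertain. The transgenic arrays read 9.06 and 8.84 and the wild-type arrays 10.07 and 9.63, without overlap. The difference was -0.90 ± 0.21 (1.87-fold, adjusted p = 0.046), and it was -0.68 without wild-type replicate 1 (adjusted p = 0.051, within a range of 0.013 to 0.25 over the refits). Another feature, with a symbol that RefSeq lists under dnajc4, differed by only -0.21 ± 0.18, and its groups overlapped (adjusted p = 0.43).

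Of the 3 class C features listed as endoplasmic reticulum, those of dnajc3a and DNAJC10 lay below 0, that of DNAJC16 lay above it, and 0 passed. The feature of dnajc3a, which encodes a luminal cochaperone also known as an inhibitor of eIF2 kinases, read 10.61 and 10.89 against 11.19 and 11.24 in the wild type (-0.46 ± 0.16, adjusted p = 0.11). The feature with the ortholog DNAJC10, a disulfide reductase of the same compartment, differed by -0.33 ± 0.15 (adjusted p = 0.17). A DNAJC16 feature differed by 0.12 ± 0.16. Of the 8 features whose product was listed as residing in the endoplasmic reticulum or its membrane, 1 rose (dnajb12b), 0 fell and 7 did not pass, with a median of -0.13. Of 6 features listed as mitochondrial, 0 rose and 2 fell (DNAJA3 and DNAJC4), with a median of -0.12. The 18 remaining features held 1 that rose and 2 that fell, with a median of -0.08. These counts of 1 of 8, 2 of 6 and 3 of 18 stand beside 17.6% of all features called and 7.28% called lower.

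The other class C members did not pass. The feature of dnajc5aa, which encodes the cysteine string protein of synaptic vesicles, read 12.19 and 12.07 against 12.10 and 11.92 and overlapped (0.12 ± 0.15, 95% interval -0.27 to 0.51). The 2 features of dnajc7, a cochaperone that binds both HSP70 and HSP90, differed by 0.05 ± 0.14 and -0.33 ± 0.23. The 2 of dnajc11a, a mitochondrial membrane protein gene, differed by -0.21 ± 0.15 and -0.04 ± 0.15. The spliceosomal gene dnajc8 differed by -0.31 ± 0.15 and the histone chaperone ortholog DNAJC9 by -0.12 ± 0.20. None of these 7 features of dnajc5aa, dnajc7, dnajc11a, dnajc8 and DNAJC9 passed, and their adjusted p values in limma ran from 0.20 to 0.88.

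The 3 classes can be set side by side by their counts. Passing features numbered 1 of 7 in class A, 3 of 12 in class B and 2 of 13 in class C, beside 17.6% of all features. Transgenic values lay wholly above wild-type values in 0 features of class A, 3 of class B and 3 of class C, and wholly below in 3, 5 and 5. Over the 32 members the groups were apart in 19 (59.4%), beside 67.6% of all features. They were 6 above (18.8%) and 13 below (40.6%), beside 34.4% and 33.1% of all features. Point estimates were below 0 for 22 of 32 members (68.8%), beside 49.5% of all features. The differences of 24 members (75.0%) were under 0.5 in size, beside 63.4% of all features, and 4 members (12.5%) both passed and reached 2-fold, beside 10.2% of all features. By the q-values in the authors' deposited table, 18 members (56.2%) lay under 0.05, beside 67.7% of all features. The 6 features that passed were all among the 17 named by a human ortholog, and 0 of the 15 named by a zebrafish symbol passed. The matching shares over all features named in each way were not computed. Of the 6, only dnajb12b, named through its RefSeq transcript, is tied to 1 zebrafish gene.

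**Figure D3:**
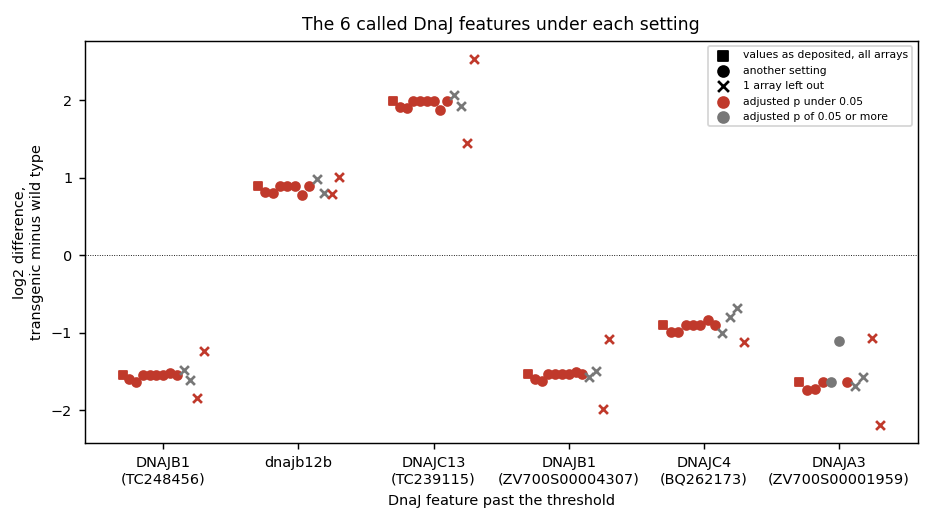
Log2 difference, transgenic minus wild type (vertical axis), of the 6 DnaJ features past the threshold (horizontal axis) with the values as deposited, under other settings and with 1 array left out, in red where the adjusted p was under 0.05. Each feature kept its sign in all of these, and each lost its call when either transgenic array was left out.

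Symbols that do not begin with dnaj hid more cochaperone genes. A further 19 features had another zebrafish symbol and a DNAJ ortholog, and 1 of them rose and 4 fell (26.3% called). Of all features 17.6% were called, 10.3% higher and 7.28% lower. The largest fall was on a second DNAJA1 feature, listed as LOC560838, which read 12.11 and 12.94 against 14.29 and 14.66 in the wild type (-1.95 ± 0.32, 3.86-fold, adjusted p = 0.024). The groups did not overlap, and the change was in the direction of the DNAJA1 feature above, which did not pass. The feature that rose was that of dnajb6b, a suppressor of protein aggregation, at 12.46 and 12.56 against 11.69 and 11.55 (0.89 ± 0.15, adjusted p = 0.024). Its paralog dnajb6a differed by -0.31 ± 0.20 (adjusted p = 0.32).

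Endoplasmic reticulum cochaperones went both ways. Over all DnaJ names, 2 of the 16 features so listed rose and 2 fell, beside 10.3% of all features called higher and 7.28% called lower. The feature of dnajb9b, a cochaperone of BiP, read 9.34 and 9.57 against 10.21 and 10.48 in the wild type (-0.89 ± 0.18, adjusted p = 0.035), and that of its paralog dnajb9a lay on the other side (0.34 ± 0.14, adjusted p = 0.14). The paralog of dnajc3a, dnajc3b, read 9.96 and 10.005 against 10.73 and 10.60 (-0.68 ± 0.14, adjusted p = 0.038). A DNAJC9 feature listed as LOC791845 fell by 0.61 (log2, SE 0.14, adjusted p = 0.047). The gene dnajb5, a relative of DNAJB1, differed by 0.57 ± 0.16 without passing (adjusted p = 0.074). Another 7 features carried a DnaJ name in RefSeq alone. Of these dnajc22, listed as endoplasmic reticulum, rose (0.77 ± 0.17, with both wild-type values below the 25th percentile of their arrays). The feature of dnajc28 fell (-0.65 ± 0.15), and that of dnajc15, a mitochondrial import gene, differed by -0.06 ± 0.14. Over all 58 features 4 rose and 9 fell (22.4% called), beside 17.6% of all features called, 10.3% higher and 7.28% lower. By the letter in the name this was 0 and 2 of 9 in class A, 2 and 3 of 19 in class B and 2 and 4 of 30 in class C. Class A here includes the features of DNAJA5, the older name of DNAJC21, none of which passed.

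The genes that DnaJ proteins work with were taken as HSP70 genes, nucleotide exchange factors, which release ADP from HSP70, and further partners, each by its brightest feature. Among 10 genes of the HSP70 and HSP110 families, 3 fell and 0 rose, with a median of -0.50. Of all features, 7.28% were called lower and 10.3% higher. The inducible hsp70.3 read 12.15 and 12.48 against 14.84 and 15.32 in the wild type (-2.76 ± 0.23, adjusted p = 0.0092). A second inducible feature, hsp70, which near-identical copies make uncertain, fell by 2.69 (log2, SE 0.28). The HSP110 family gene hspa4a, an exchange factor for HSP70, also fell (-1.39 ± 0.25, adjusted p = 0.028), whereas the constitutive hspa8 stood at 15.59 and 15.54 against 15.54 and 15.74 (-0.08 ± 0.15, adjusted p = 0.74). The features of hspa4l, another HSP110 family gene, disagreed on the call: the brighter did not pass (-0.66 ± 0.19, adjusted p = 0.074), and the other fell (-1.07 ± 0.16, adjusted p = 0.021). The transgenic values of the feature that fell, 6.60 and 6.86, lay below the 25th percentile of their arrays.

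Exchange factors and adaptors include bag2 and stip1, which fell. The counts below stand beside 7.28% of all features called lower and 10.3% called higher. Of 6 exchange factors 0 rose and bag2 fell (-1.03 ± 0.16, adjusted p = 0.023), with its other feature at -0.56 ± 0.17 (adjusted p = 0.086). The gene bag3, whose human ortholog is heat inducible, overlapped between genotypes (0.21 ± 0.22, adjusted p = 0.52). Of 4 further partners 0 rose and stip1 fell, which encodes the adaptor between HSP70 and HSP90 (-0.74 ± 0.15, adjusted p = 0.035). The brightest feature of hsf1, the heat shock transcription factor gene, differed by 0.23 ± 0.33 (adjusted p = 0.64), and 1 of its 4 features fell (-1.74 ± 0.37, adjusted p = 0.039). On that feature the transgenic values of 6.75 and 5.71 lay below the 25th percentile of their arrays (7.17 and 7.12). The J-domain genes sec63 and hscb, which carry no dnaj name, differed by 0.13 ± 0.14 and -0.33 ± 0.21 (adjusted p = 0.52 and 0.32).

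**Figure D4:**
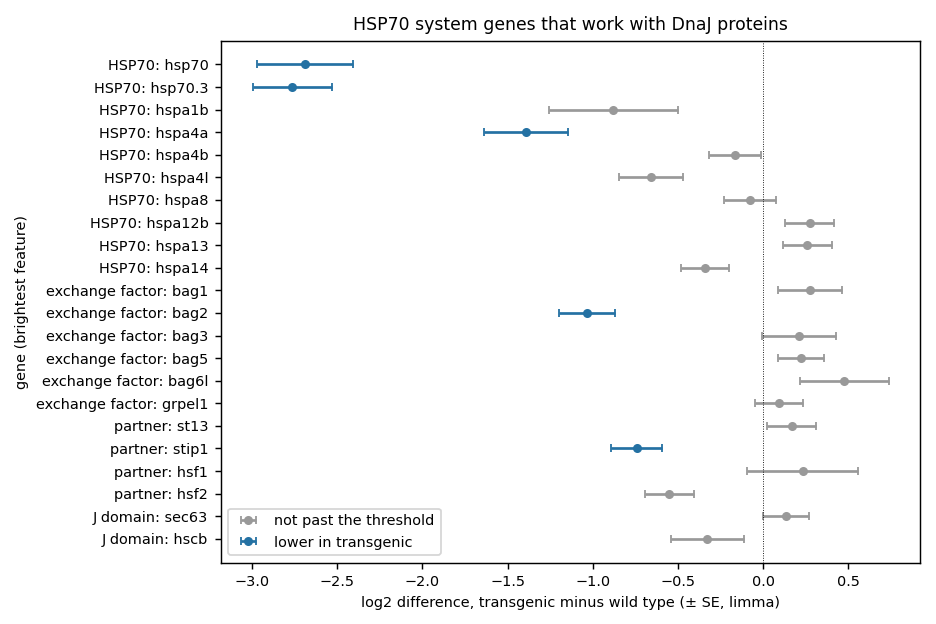
Log2 difference, transgenic minus wild type, with the limma SE as error bars (horizontal axis), of 22 genes of the HSP70 system (vertical axis), each by its brightest feature. The 5 blue points, hsp70, hsp70.3, hspa4a, bag2 and stip1, passed an adjusted p of 0.05, all below 0. Of all features, 17.6% were called and 7.28% were called lower.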

How the data were processed

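Per the labels, Trizol was used to extract total RNA, and Roche NimbleGen did the Cy3 labelling. The authors deposited 1 expression value per feature and array, taken as log2 because the highest values lie near the log2 limit of a 16-bit scanner. The sources used here do not give the background correction, probe summary or normalization. Neither detection calls nor slides or scan dates were given, and no batch was tested. Per the file headers, a second deposited table holds the authors' own comparison, with log2 fold changes and q-values from an unnamed test. The fold change equals the difference of group means within 2.8e-08.

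Arrays were grouped by title. Differences were fitted for all 37176 features in R 4.3.3 with limma 3.58.1 (lmFit and eBayes, 2 residual and 2.92 prior degrees of freedom), with Benjamini-Hochberg adjustment over all features and a threshold of 0.05. The step was tested on simulated data. Names were updated through RefSeq (GRCz12tu), which matched 18 of the 32 members. The members, lists, tests and alternatives were chosen with earlier results of these data known. The rule for naming took all members past the threshold, all class A members, the 3 largest differences per class among the rest and a list of well-known cochaperone genes. From the wider sets it took those of that list and every feature past the threshold. The remaining members and, from the wider sets, a dnajc4 feature were described in addition to the rule. Replicate numbers 1 and 2 occur in both genotypes, and the labels do not say that they mark a shared batch. Alternatives were other normalizations, filters, variance priors, a pseudocount of 50, a replicate block, a looser threshold, the deposited q-values, other memberships and leaving out each array.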

Additional observations from a re-analysis of the deposited data

How the results depend on the processing

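The count of DnaJ features that rose or fell stayed within 1.5 times of 2 and 4 under quantile normalization, median centring, both filters, the trend and robust priors, log2(value + 50), the replicate block and an adjusted p of 0.10. The filter at the median kept 23 members. It removed DNAJA3 (ZV700S00001959), dnajb12b and DNAJC4 (BQ262173) before testing, so these could not be called. Of the 5 features called with it, 3 were among the 6, which are all of the 6 that it kept. The others were DNAJC13 (ENSDART00000097595) and dnajb12a (OTTDART00000026129). The filter at the 25th percentile kept 31 members and removed DNAJA3 (ZV700S00001959). With the replicate block 2 rose and 4 fell, the same 6 features, and 7291 of all features passed, beside 6538 without it. Over all features, replicate 1 minus replicate 2 of the transgenic pair correlated at 0.206 with that of the wild-type pair. Leaving out 1 array gave 0 to 2 features that rose and 0 to 6 that fell, and 0 to 12163 of all features past the threshold. One feature per gene left 1 that rose and 2 that fell of 25. With features under other symbols added, 3 of 51 rose and 8 fell (21.6% called). Every DnaJ name, a choice made after seeing the data, gave 4 rises and 9 falls of 58 (22.4% called). Of all features 17.6% were called, 10.3% higher and 7.28% lower. The authors' deposited table, at a q of 0.05, called 4 higher and 14 lower, beside 25150 of all features (67.7%), and an adjusted p of 0.10 called 11247. The cause of these changes was not tested, beyond the fewer or more arrays and features they hold.

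The class A median of -0.09 became -0.18 under median centring, -0.047 above the median level and -0.11 with features under other symbols or with every DnaJ name, and ranged from -0.21 to -0.046 with 1 array left out. The class B median of -0.07 became -0.16 under quantile normalization, -0.16 under median centring and -0.15 above the median level, was -0.020 with 1 feature per gene and with features under other symbols, and ranged from -0.13 to -0.058. The class C median of -0.12 became -0.21 under median centring and ranged from -0.15 to -0.038. Median centring moved the median of all features from 0.01 to -0.09. Crossing of 0 with 1 array left out was counted only for the 22 members taken by the rule for naming. Of these, 4 that had not passed crossed it: dnaja2a (-0.21 to 0.039), dnaja2b (-0.11 to 0.015), dnaja3b (-0.046 to 0.0093) and DNAJA3 ZV700S00001875 (-0.043 to 0.42). The other members were not counted and may cross 0 too. The number of arrays limits the precision of every value.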
